A study of Mus musculus with 24 samples.

Results

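Genes that mark GABAergic interneurons were followed in bulk RNA-seq of the mouse nucleus accumbens (NAc). The 8 genes, Sst, Npy, Nos1, Pvalb, Th, Vip, Calb2 and Lhx6, were chosen by name from the 52636 gene identifiers counted, and all 8 were found and passed the filter on low counts in every comparison. The data comprise 24 libraries from C57BL/6 mice at postnatal day 50, with 6 in each of 4 groups, namely control (Con) females, females given maternal separation with unpredictable maternal stress (MSUS), Con males and MSUS males. MSUS litters were separated daily from postnatal day 1 to 14, Con litters were not, and neither had any genetic modification named in the labels. Each library was made from bilateral NAc punches depleted of ribosomal RNA. Nothing in the labels links animals to litters, so the p-values measure the spread between these animals, littermates or not.

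Interneurons are a small minority of NAc neurons, most of which are GABAergic medium spiny neurons, and they shape the firing of their neighbours. One striatal class releases the peptides somatostatin (Sst) and neuropeptide Y (Npy) and makes nitric oxide with neuronal nitric oxide synthase (Nos1). A second, the fast-spiking class, carries the calcium buffer parvalbumin (Pvalb). Both classes arise from the medial ganglionic eminence (MGE), where the transcription factor Lhx6 is needed for their formation. Further striatal interneurons carry calretinin (Calb2) or tyrosine hydroxylase (Th), the enzyme that starts catecholamine synthesis. Vasoactive intestinal peptide (Vip) marks a class that is well known in the cerebral cortex, which also holds many Sst and Pvalb cells. The same genes are not exclusive to interneurons in a punch, since Th transcripts can also come from elsewhere and Nos1 is found in several cell types.

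In coordinates of mouse build mm10 (GRCm38), Sst (ENSMUSG00000004366.3) lies on chromosome 16 at 23889573-23890958, minus strand. Npy (ENSMUSG00000029819.6) lies on chromosome 6 at 49822710-49829507, plus strand, and Nos1 (ENSMUSG00000029361.18) on chromosome 5 at 117781032-117958840, plus strand. The 250 bases upstream of the RefSeq transcription start are shown for the 4 members whose levels moved most closely with, or against, each other across animals (the co-variation is given after the comparisons). The cAMP response element, TGACGTCA, is in capitals where it is present, and where it is absent any short element, TGACG, is in capitals; both strands were searched, and the full element contains the short one. The sequences are those of RefSeq on GRCm38.p6, 5′ to 3′ on the strand of the gene. The window of Sst is chr16:23890845-23891094 (minus), of Npy chr6:49822460-49822709 (plus), of Vip chr10:5638968-5639217 (plus) and of Th chr7:142899996-142900245 (minus).
Sst: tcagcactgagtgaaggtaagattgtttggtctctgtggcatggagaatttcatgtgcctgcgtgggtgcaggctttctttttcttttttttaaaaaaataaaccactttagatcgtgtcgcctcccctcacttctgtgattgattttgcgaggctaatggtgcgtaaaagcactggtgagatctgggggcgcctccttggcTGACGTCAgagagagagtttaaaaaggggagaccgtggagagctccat
Npy: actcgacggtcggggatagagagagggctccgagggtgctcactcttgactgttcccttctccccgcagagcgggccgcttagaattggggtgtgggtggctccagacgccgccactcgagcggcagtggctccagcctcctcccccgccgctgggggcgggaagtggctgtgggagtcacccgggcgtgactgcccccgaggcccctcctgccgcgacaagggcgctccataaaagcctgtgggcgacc
Vip: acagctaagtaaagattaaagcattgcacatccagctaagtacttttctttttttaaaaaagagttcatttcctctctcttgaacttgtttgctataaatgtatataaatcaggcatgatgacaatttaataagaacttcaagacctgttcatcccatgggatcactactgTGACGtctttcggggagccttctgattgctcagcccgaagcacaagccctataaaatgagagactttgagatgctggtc
Th: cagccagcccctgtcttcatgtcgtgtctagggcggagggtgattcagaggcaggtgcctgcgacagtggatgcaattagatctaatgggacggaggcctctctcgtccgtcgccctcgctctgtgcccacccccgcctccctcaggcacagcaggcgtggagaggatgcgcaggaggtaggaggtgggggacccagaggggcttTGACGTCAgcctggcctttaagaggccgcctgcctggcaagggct
The full element began 48 bases before the RefSeq start of Sst and 45 bases before that of Th. The gene spans printed in this report for Sst and Th reach further upstream than these starts. Both elements therefore lie inside the printed spans. The Vip window held the short element, 79 bases before the start, and the Npy window held neither. Of 32817 upstream windows of the same length, 508 (1.55%) held the full element and 5825 (17.8%) held at least the short element. Windows were found for 7 of the 8 members, 10 windows in all, and none was listed for Calb2. The full element was in 2 of the 10, those of Sst and Th. Among the windows not printed, that of Nos1 held the short element, and those of Pvalb and Lhx6 held neither. A match of letters is a description of the sequence only.

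Library totals ranged from 39923666 to 70575745 counts, so even the least abundant member, Vip, was counted 32 to 811 times per library. All medium spiny neuron markers examined, 7 of 7, were counted in every library, with a summed level of 99021 to 261270 normalized counts, where normalized counts are raw counts divided by a size factor per library. Cortical excitatory neuron markers (7 genes, among them Slc17a7, Tbr1, Neurod6, Neurod2, Fezf2 and Emx1) were also counted in every library, and they varied widely. Their summed level was 7397 to 78169 normalized counts in Con females and 504 to 31886 in MSUS females, beside 2093 to 52820 in Con males and 2301 to 77941 in MSUS males. The share of read pairs that mapped but were assigned to no gene was 31.0% to 34.8% in Con females and 36.3% to 43.9% in MSUS females, which do not overlap, whereas the male groups did. Both measures are therefore given beside the results below. In bulk tissue, fewer cells of a type cannot be told apart from less RNA per cell.

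Per kilobase of exon, Sst was the most abundant member and Vip the least. The mean level over all 24 animals, in CPM (counts scaled to a common library size with TMM factors) per kilobase, was 156 ± 38.8 (SD) for Sst, 56.4 ± 12.4 for Npy and 11.1 ± 1.09 for Nos1. The next 3 members lay close together at 6.53 ± 2.23 for Calb2, 6.40 ± 3.15 for Pvalb and 5.10 ± 1.41 for Lhx6. Th followed at 2.95 ± 0.74 and Vip at 1.13 ± 1.03. Sst exceeded Npy, Npy exceeded Nos1, Nos1 exceeded Calb2 and Lhx6 exceeded Th in 24 of 24 animals each. The order of Calb2 over Pvalb held in 13 of 24 and that of Pvalb over Lhx6 in 16 of 24, so these neighbours did not differ beyond their spread. Th exceeded Vip in 21 of 24.

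The members also differed in how much they varied between animals of one group. The SD within groups, in log2 CPM, was 0.15 for Nos1, 0.30 for Npy, 0.32 for Sst, 0.34 for Lhx6, 0.39 for Th, 0.57 for Calb2, 0.84 for Pvalb and 1.18 for Vip, whereas the median over 14310 genes with a mean of at least 100 counts was 0.12. Of those genes, 99.7% had a smaller spread than Vip and 99.3% a smaller spread than Pvalb, compared with 60.8% for Nos1. Between the lowest and the highest library, Vip ranged 20.4-fold, Pvalb 7.26-fold and Nos1 1.51-fold. Nos1 was thus the most even of the 8 members and Vip the least.

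**Figure D1:**
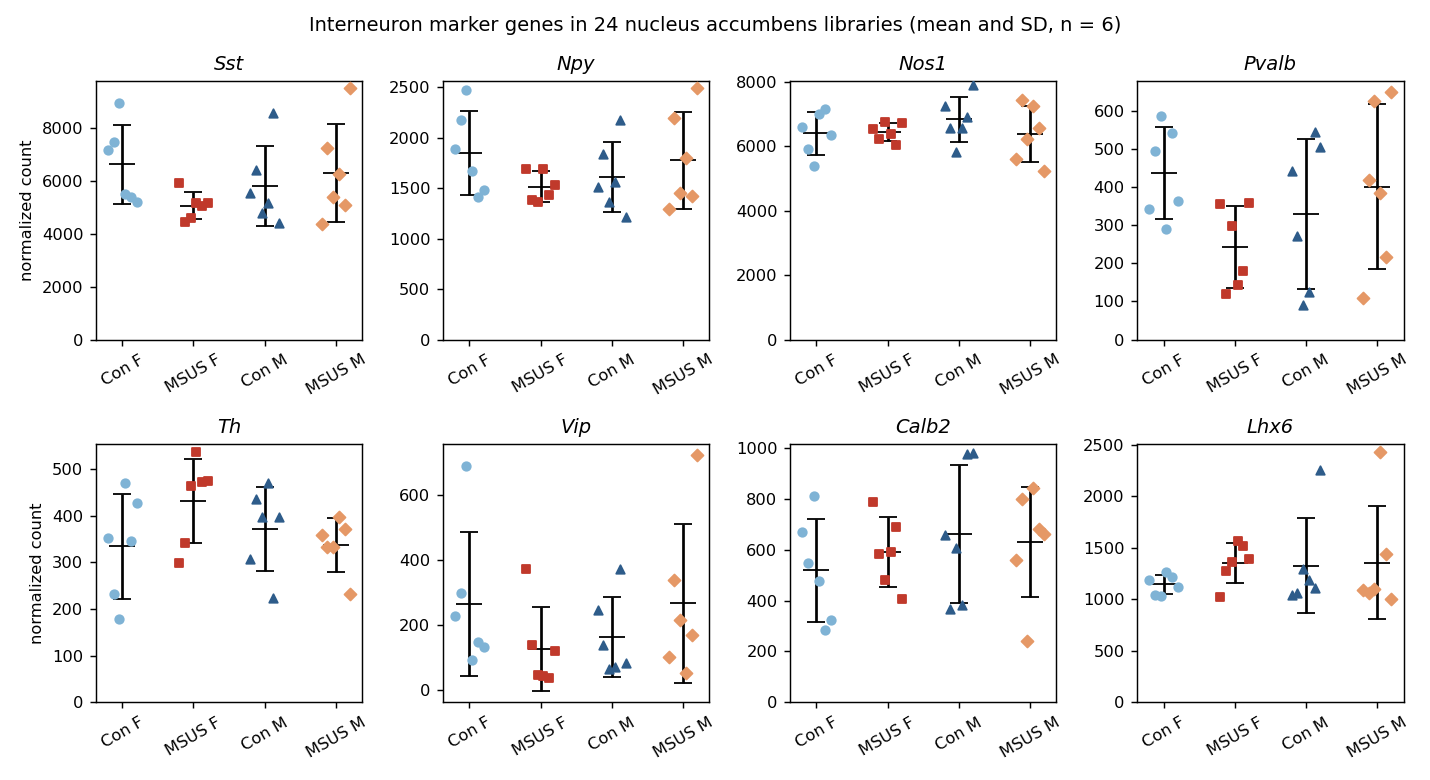
Normalized counts of the 8 members in each of the 24 libraries, grouped by sex and exposure (Con F and MSUS F, females; Con M and MSUS M, males). Horizontal ticks are group means and bars the SD (n = 6); all 8 members overlapped between MSUS and Con in both sexes, and 1 library in each male group stood far above the rest for Lhx6.

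The first question was whether MSUS changed interneuron markers in females. Of the 8 members, 3 passed an adjusted p of 0.10 (edgeR's quasi-likelihood test, Benjamini-Hochberg over all genes tested), compared with 25.1% of all 20571 genes tested in that comparison. Sst and Pvalb fell, 2 of 8 against 11.9% of all genes, and Lhx6 rose. The 6 MSUS and 6 Con females overlapped for each of the 8 members, compared with 7.21% of all genes that did not overlap. The median log2 fold change of the 8 was -0.14, beside -0.0027 over all genes tested. With so high a background, these calls do not set the members apart from other genes.

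In the somatostatin class, Sst fell in MSUS females, and neither Npy nor Nos1 passed. Sst in Con females was 5216 normalized counts at its lowest, 6352 at the median and 8969.6 at its highest, and in MSUS females it was 4463, 5105 and 5916. None of the 6 MSUS females was above the Con median. The group means were 6627 ± 1499 (SD, n = 6) and 5064.5 ± 512, a log2 fold change of -0.39 ± 0.13 (SE; edgeR adjusted p = 0.0682). The Con animals spread more widely than the MSUS animals, since replicates 1, 2 and 3 stood at 7181, 7477 and 8969.6 and the other 3 at 5216 to 5523.

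Npy was 1407, 1779 and 2467 normalized counts (lowest, median, highest) in Con females and 1363, 1481 and 1693 in MSUS females. None of the 6 MSUS females was above the Con median here either, but the log2 fold change of -0.28 ± 0.13 missed the threshold (edgeR adjusted p = 0.155). It was -0.35 without Con replicate 5 and -0.34 without Con replicate 6 (edgeR adjusted p = 0.0728 and 0.0924), and -0.18 without Con replicate 3 (0.285). Nos1 was 5379, 6468 and 7168 in Con females and 6030.1, 6452 and 6749 in MSUS females. Its log2 fold change was 0.013 ± 0.061, with a 95% interval from -0.11 to 0.13 (edgeR adjusted p = 0.902), the narrowest interval among the members. All 95% intervals given here use a normal quantile of the SE, so they are narrower than the edgeR test implies. 3 of the 6 MSUS females were above the Con median for Nos1.

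Pvalb, on chromosome 15 at 78191114-78206400 (ENSMUSG00000005716.16), had the largest change among the members that passed. It was 291, 429 and 586 normalized counts in Con females and 119, 238 and 358 in MSUS females, and again no MSUS female was above the Con median. The means were 437 ± 121 and 242 ± 108, a log2 fold change of -0.85 ± 0.29, or 0.556-fold (edgeR adjusted p = 0.0706). Lhx6 (chromosome 2, 36081953-36105408, ENSMUSG00000026890.19), the transcription factor upstream of both MGE classes, went the other way. It was 1030.4, 1154 and 1265 in Con females and 1024, 1379 and 1566 in MSUS females, with 5 of 6 above the Con median. The means were 1145 ± 94.6 and 1357 ± 193, a log2 fold change of 0.25 ± 0.090 (edgeR adjusted p = 0.0763). The lowest MSUS value for Lhx6, in replicate 1, was below every Con female.

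The other 3 members did not pass. Vip (chromosome 10, 5639218-5647617, ENSMUSG00000019772.5) was 89.9, 186 and 687 normalized counts in Con females and 35.3, 82.4 and 372 in MSUS females. MSUS replicates 3, 4 and 5 were at 35.3 to 46.0 and replicate 1 at 372, and the log2 fold change of -1.06 ± 0.66 had a 95% interval from -2.35 to 0.23 (edgeR adjusted p = 0.283). It was -0.50 without Con replicate 3 and -1.79 without MSUS replicate 1 (edgeR adjusted p = 0.617 and 0.0614), and -3.03 ± 1.83 with the share of spliced reads as a covariate (0.905). That share stands for splice events per uniquely mapped read pair. Th (chromosome 7, 142892752-142931128, ENSMUSG00000000214.11) was 178, 349 and 469 in Con females and 299, 468 and 536 in MSUS females, with 4 of 6 above the Con median. Its log2 fold change was 0.37 ± 0.22 (edgeR adjusted p = 0.267). Calb2 (chromosome 8, 110137502-110168210, ENSMUSG00000003657.9) was 285, 513 and 812 in Con females and 407, 587 and 788 in MSUS females, a log2 fold change of 0.19 ± 0.25 (edgeR adjusted p = 0.637).

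The 3 calls were close to the threshold, with adjusted p from 0.0682 to 0.0763 (edgeR). All 7 cortical markers were lower in MSUS females, with a median log2 fold change of -1.82, and 2 of them passed. With the cortical marker score as a covariate (the mean log2 CPM of the 7 markers, centred over all libraries), 8.23% of all genes tested passed, instead of 25.1%, and none of the 8 members did. Sst was -0.14 ± 0.14, Pvalb -0.55 ± 0.35 and Lhx6 0.037 ± 0.069 on the log2 scale (edgeR adjusted p = 0.612, 0.416 and 0.818). With the share of spliced reads as a covariate no gene of the 20571 passed (edgeR; 719 at an unadjusted p under 0.05), so the absence of calls says nothing about the members in particular. The log2 fold changes were -0.30 ± 0.33 for Sst, -1.35 ± 0.75 for Pvalb and 0.56 ± 0.19 for Lhx6 (edgeR adjusted p = 0.906, 0.905 and 0.905). No member passed in females when Con replicate 2 or 3 or MSUS replicate 3, 4 or 5 was left out, 1 passed without Con replicate 1 or MSUS replicate 2 or 6, and 4 without MSUS replicate 1, Vip being the fourth. Npy passed without Con replicate 5 or 6. Over these fits 15% to 27.7% of all genes passed. The part of the cortical markers in these differences was not tested beyond these fits.

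**Figure D2:**
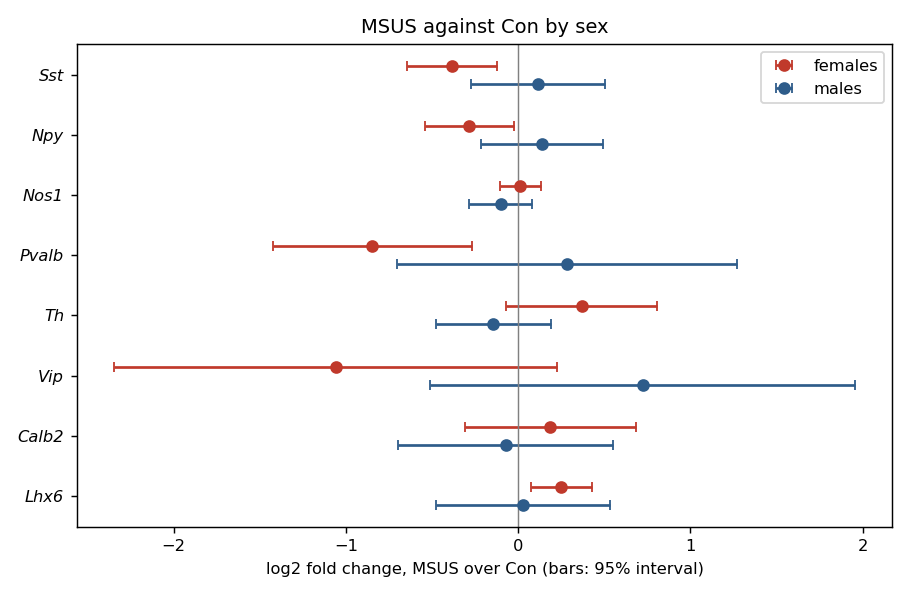
Log2 fold change of MSUS over Con for each member, in females and in males (points), with 95% intervals from the fitted standard errors. The intervals use a normal quantile, so they are narrower than the edgeR test implies. In females the intervals of Sst, Npy and Pvalb lay below 0 and that of Lhx6 above 0. In males all 8 intervals included 0. For Npy in females the edgeR p was 0.051 unadjusted and 0.155 adjusted, so its interval is not read as excluding 0.

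In males, none of the 8 members passed (edgeR; 0 at an unadjusted p under 0.05, and 0 by DESeq2), and 0% of 20691 genes did. Unadjusted, 191 genes were under 0.05 by edgeR and 148 by DESeq2. Sst was 4431, 5362 and 8579 normalized counts in Con males and 4387, 5820.4 and 9525 in MSUS males, a log2 fold change of 0.12 ± 0.20. Npy was 1212, 1539.8 and 2176 in Con and 1294, 1628 and 2497 in MSUS males (0.14 ± 0.18), and Nos1 was 5824.5, 6739.6 and 7889 against 5234, 6384 and 7427 (-0.10 ± 0.092). The highest Sst and Npy values of all 24 libraries and the lowest Nos1 value were in the same animal, MSUS male replicate 6.

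Pvalb spread almost evenly over its range in both male groups, at 89.5, 357 and 545 normalized counts in Con and 108, 402 and 649 in MSUS males, with a log2 fold change of 0.28 ± 0.50. Vip was 63.9, 109 and 370.1 against 49.6, 192 and 721 (0.72 ± 0.63). The 95% intervals of these 2 members ran from -0.70 to 1.27 and from -0.51 to 1.96. The female estimates lay below both, whereas the female intervals overlapped them. Th was 223, 398 and 469 in Con and 231, 346 and 397 in MSUS males (-0.14 ± 0.17), with none of the 6 MSUS males above the Con median. Calb2 was 368, 634 and 981 against 243, 672 and 842 (-0.071 ± 0.32).

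The spread of Lhx6 in males came mostly from 1 library in each group. In Con males it was 1040.1, 1152.5 and 2254 normalized counts, and in MSUS males 999.5, 1099 and 2431. Con male replicate 6 (2254) and MSUS male replicate 4 (2431) were each far above the next highest in their group, 1296 and 1438. The log2 fold change was 0.027 ± 0.26, and it was 0.25 without Con male replicate 6 and -0.22 without MSUS male replicate 4. The same 2 libraries had the highest levels of Slc6a11, a GABA transporter, at 14027 and 13678 normalized counts against 5575 to 9411 in the other 22, and the highest cholinergic marker sums of their groups, 6158 and 5456. They also had the lowest cortical marker sums of their groups, 2093 and 2301. The part of these measures in the Lhx6 level was not tested.

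The effect of MSUS was then compared between the sexes directly. No member passed in the group-by-sex interaction (edgeR; 0 at an unadjusted p under 0.05, 1 by DESeq2 unadjusted and 0 adjusted), and 0% of 21500 genes did, with 4031 genes under 0.05 unadjusted by edgeR and 343 higher and 124 lower ones passing by DESeq2. The differences of log2 fold change, females minus males, were -0.51 ± 0.25 for Sst (edgeR adjusted p = 0.279), -0.43 ± 0.23 for Npy, -1.14 ± 0.61 for Pvalb and -1.79 ± 0.95 for Vip. They were 0.51 ± 0.29 for Th, 0.25 ± 0.43 for Calb2, 0.22 ± 0.28 for Lhx6 and 0.11 ± 0.11 for Nos1. The passing calls of Sst, Pvalb and Lhx6 in females are therefore not shown to differ from males.

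Con females and Con males were also compared. None of the 8 members passed (edgeR; 0 at an unadjusted p under 0.05, and 0 by DESeq2), compared with 2.64% of 20641 genes. The log2 fold changes, females over males, ran from -0.34 ± 0.32 for Calb2 to 0.70 ± 0.57 for Vip. Nos1 had the smallest, at -0.089 ± 0.082, with an interval from -0.25 to 0.071.

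The members' co-variation across animals was next examined, using log2 CPM minus the group mean, so that differences between groups do not enter. Of 28 pairs, 16 passed an adjusted p of 0.10 by Pearson's r (permutation test of 100000 resamples, two-sided, adjusted over the 28). Of the 16, 10 were positive and 6 negative, and 12 also passed by Spearman's rho. The test was not run on pairs of other genes, so this count does not set the members apart from them. Sst and Npy were the closest pair, with r = 0.97 and rho = 0.98 (adjusted permutation p = 0.00014 and 0.00028), r = 0.96 without the 2 animals farthest in Sst, 0.95 within females and 0.98 within males. The ratio of Sst to Npy normalized counts was 3.52 ± 0.21 (SD, n = 24), between 3.06 and 3.94 in every library, although each gene ranged over 2-fold. Among females it was 3.59 ± 0.21 with Con rearing and 3.35 ± 0.18 after MSUS, and among males 3.60 ± 0.22 and 3.55 ± 0.19.

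Nos1, the third gene of that class, did not follow the peptides. Its r was -0.27 with Sst and -0.27 with Npy over all animals (adjusted permutation p = 0.25 for both), -0.68 and -0.71 within females and -0.09 and -0.06 within males. The ratio of Sst to Nos1 ranged 3.24-fold over the libraries, from 0.56 to 1.82, compared with 1.29-fold for Sst to Npy. Counts of 2 transcripts in 1 punch cannot tell whether they come from the same cells.

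**Figure D3:**
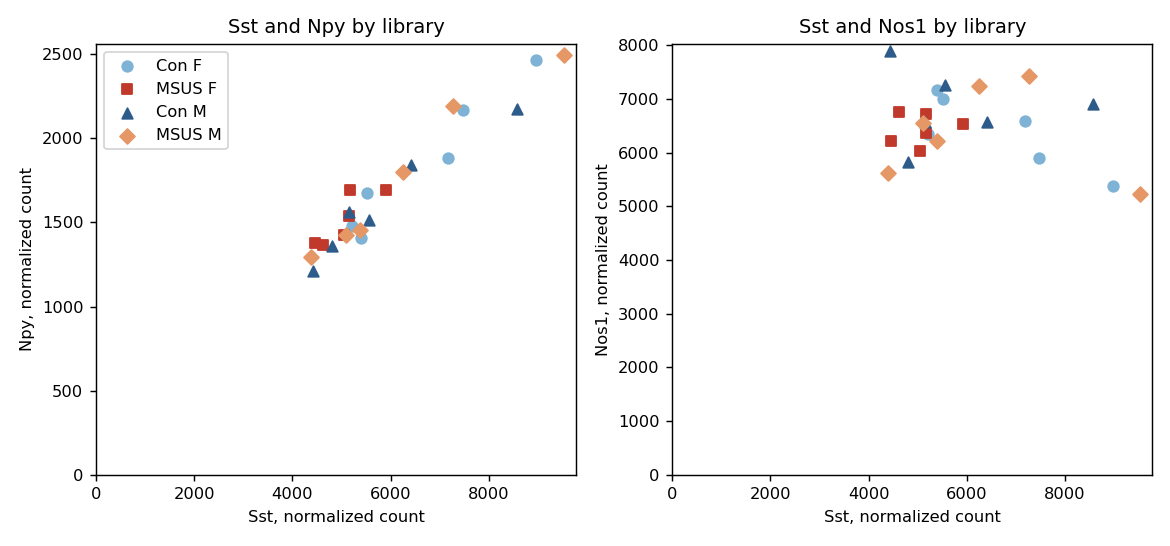
Normalized counts of Npy (left) and Nos1 (right) against Sst, 1 point per library, by group. Npy rose with Sst along a line in all groups, with a ratio of Sst to Npy between 3.06 and 3.94, whereas Nos1 lay between 5234 and 7889 with no such line.

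Vip and Th were the pair most opposed. Their r was -0.85 and rho -0.78 (adjusted permutation p = 0.00014 and 0.00042), with r = -0.81 without the 2 farthest animals in Th, -0.87 within females and -0.84 within males. Sst rose with Vip (r = 0.71, rho = 0.59) and opposed Th (r = -0.70, rho = -0.43), with adjusted permutation p of 0.001 and 0.014 for Vip and 0.0016 and 0.084 for Th. Lhx6 opposed Vip, with r = -0.67 and rho = -0.73 (adjusted permutation p = 0.0016 and 0.00065). Pvalb was positively related to Vip (r = 0.55, adjusted permutation p = 0.02) and Sst (r = 0.53, adjusted permutation p = 0.024), but not detectably to Lhx6 (r = -0.05, adjusted permutation p = 0.81). The upstream sequences of Sst, Npy, Vip and Th are those printed above, and no relation between their letters and these values was tested.

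**Figure D4:**
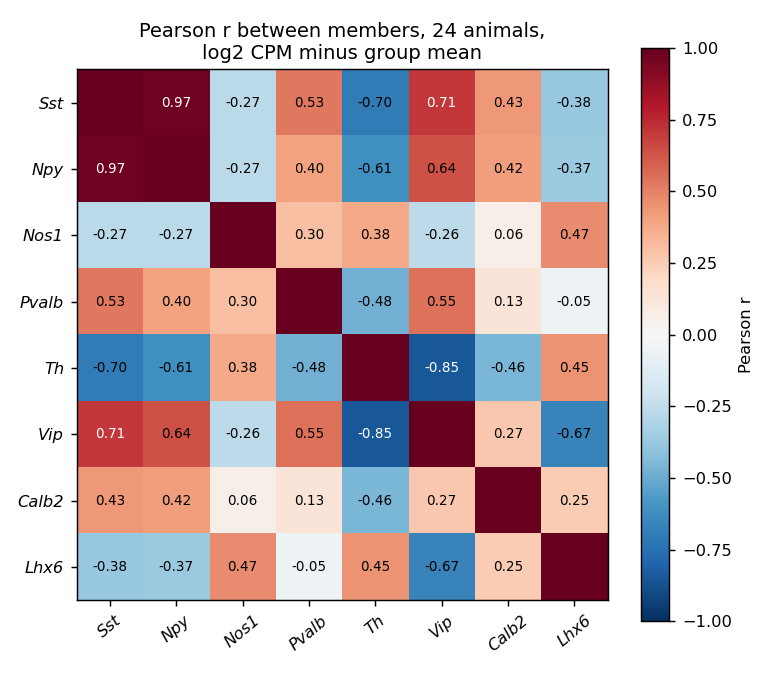
Pearson r between each pair of members over 24 animals, from log2 CPM minus the group mean (colour scale from -1 to 1). Sst and Npy (0.97) and Th and Vip (-0.85) are the extremes, and the values of Nos1 and Calb2 lie between -0.46 and 0.47. Calb2 passed with Sst (0.43), Npy (0.42) and Th (-0.46), with adjusted permutation p of 0.069, 0.076 and 0.055. Nos1 passed with Lhx6 (0.47, adjusted permutation p = 0.053).

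Several members also varied along the cortical marker score. Across 24 animals with group means removed, Vip followed the score with r = 0.95 and rho = 0.92 (adjusted permutation p = 5.3e-05 and 0.00016, over 16 relations), and r was 0.93 without the 2 farthest animals, 0.94 in females and 0.95 in males. Sst (r = 0.70, rho = 0.66) and Npy (r = 0.66, rho = 0.63) rose with it as well, with adjusted permutation p of 0.00084 and 0.0017 for r. Th (r = -0.80, rho = -0.72) and Lhx6 (r = -0.74, rho = -0.76) fell with it (adjusted permutation p = 5.3e-05 for both r). Pvalb (r = 0.38), Nos1 (r = -0.33) and Calb2 (r = 0.21) did not pass, with adjusted permutation p of 0.12, 0.19 and 0.4. Within females alone, Sst (r = 0.63) and Npy (r = 0.60) no longer passed (adjusted permutation p = 0.12 and 0.14). Other genes were not tested against this score, or against the spliced share below, so neither count has a background share.

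Against the share of spliced reads, Sst (r = 0.62), Npy (r = 0.64) and Pvalb (r = 0.49) passed, with adjusted permutation p of 0.0027, 0.0017 and 0.029, and the other 5 did not. Within males r was 0.79, 0.80 and 0.67, and within females, where none passed, it was 0.11, 0.21 and -0.22; the difference between the sexes was not tested. For Pvalb, r was 0.31 without MSUS males 1 and 2, the animals farthest in spliced share. The share of spliced reads was itself close to the inverse of the share of read pairs assigned to no gene (r = -0.96 over 24 animals), whereas its r with the cortical marker score was 0.16.

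**Figure D5:**
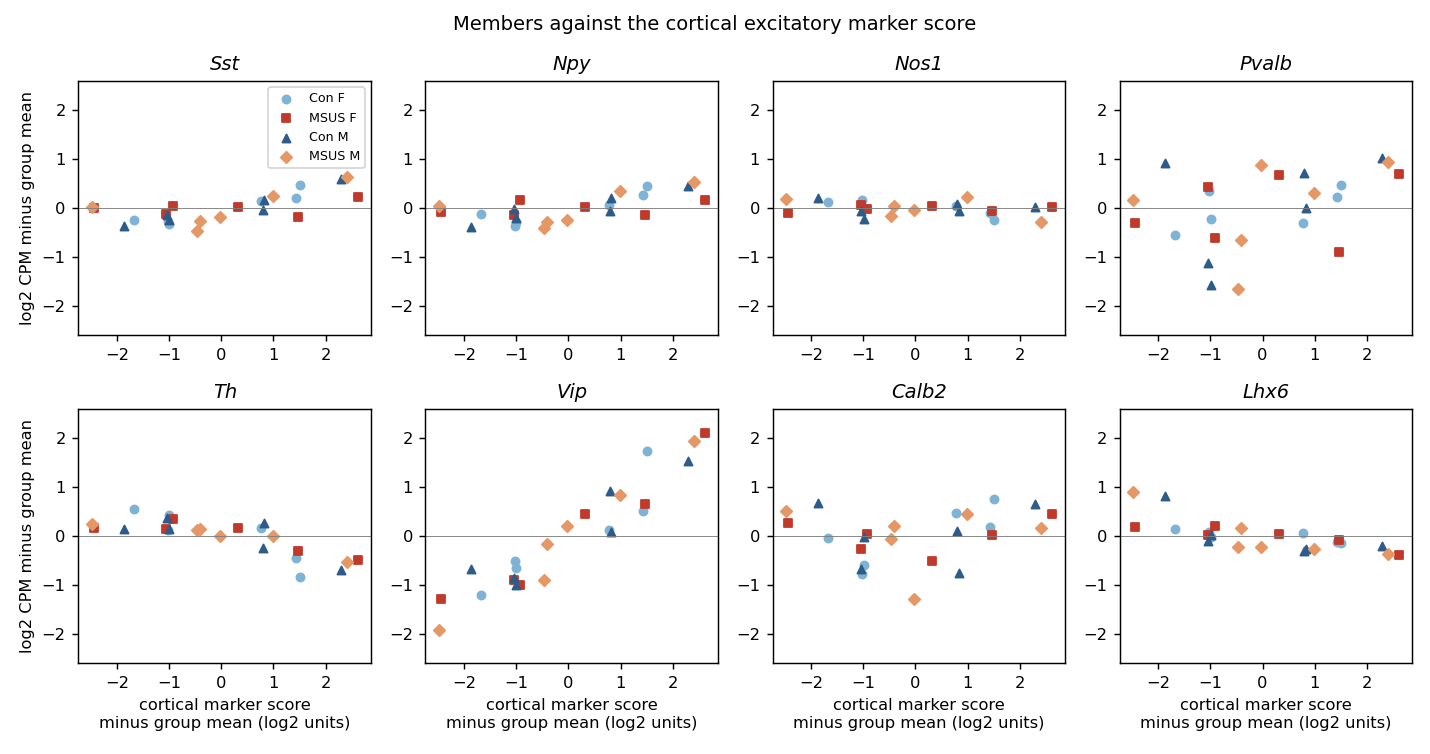
Log2 CPM minus the group mean for each member (vertical) against the cortical excitatory marker score minus the group mean (horizontal, log2 units), 1 point per library, by group. Vip rises along the score (r = 0.95), Th (r = -0.80) and Lhx6 (r = -0.74) fall, and Nos1 and Calb2 show little slope.

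For each member the genes with the most similar pattern were then listed, among 14312 other genes with a mean of at least 100 counts, as Pearson's r over 24 animals with group means removed. Sst was most like Npy (0.97), Ppfia3 (0.95) and Atp6v1g2 (0.95), and Npy was most like Sst, Gng13 (0.95) and Mmp17 (0.94). The genes most like Pvalb included Sgpp2 (0.94) and Cerk (0.93). Vip was most like Bdnf (0.99), the neurotrophin made by cortical excitatory neurons, Cdh12 (0.98) and Sel1l3 (0.97). Th was most like Tcfl5 (0.96), Wfs1 (0.95) and Glce (0.95). Lhx6 was most like Slc6a11 (0.93), Itih3 (0.92) and Vat1 (0.92), and Calb2 was most like Serpina3n (0.90), Armcx4 (0.89) and Gsta4 (0.88). Nos1 had the weakest best matches, Kcnh2 (0.83), Bcan (0.80) and Ufsp1 (0.80).

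Genes that work with the members were counted from fixed lists in females, where 25.1% of all genes passed. Of 6 genes for GABA synthesis, packaging and uptake, none passed, although all 6 log2 fold changes were positive, from 0.059 to 0.23. The smallest p was that of Slc6a11 (0.22 ± 0.096, edgeR adjusted p = 0.128). The median of the 6 was 0.10, but -0.025 with the cortical marker score as a covariate and 0.29 with the spliced share. The shared direction thus did not hold in every fit, and its cause was not tested. Of 11 MGE lineage genes, 3 fell and none rose. Those with the smallest p were the chromatin organizer Satb1 (-0.73 ± 0.22, edgeR adjusted p = 0.0489) and the homeobox gene Dlx2 (-0.58 ± 0.20, edgeR adjusted p = 0.069). Of 7 genes of interneurons from the caudal ganglionic eminence, none passed, Adarb2 having the smallest p (0.19 ± 0.086, edgeR adjusted p = 0.144). Adarb2 was the only 1 of the 7 with a positive log2 fold change, and the median was -0.25.

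Of 6 further genes of the somatostatin class, Chodl rose (0.49 ± 0.19, edgeR adjusted p = 0.0936) and Elfn1 fell (-0.20 ± 0.067, 0.0621). Of 9 genes of fast-spiking cells, 1 passed, the potassium channel Kcnc1, which fell (-0.18 ± 0.059, edgeR adjusted p = 0.054). Among 11 measured of 12 receptors for the peptides, the Y2 receptor Npy2r rose (0.82 ± 0.27, edgeR adjusted p = 0.0571), the somatostatin receptor Sstr2 fell (-0.84 ± 0.32, 0.0897), and so did Sstr1 (-0.81 ± 0.31, 0.094), named after its value was seen. In Con and MSUS females the means were 371 ± 141 and 656 ± 194 normalized counts for Npy2r, and 747 ± 362 and 415 ± 109 for Sstr2.

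Of 6 genes of nitric oxide signalling, the cGMP-dependent kinases Prkg2 (0.42 ± 0.12, edgeR adjusted p = 0.0343) and Prkg1 (0.30 ± 0.11, 0.0874) rose. The guanylate cyclase subunit Gucy1a2 (-0.16 ± 0.062, 0.0886) fell, and it was named after its value was seen. Of 9 measured of 10 genes for catecholamine synthesis, transport and breakdown, only Qdpr fell, an enzyme that recycles the cofactor of Th (-0.20 ± 0.068, edgeR adjusted p = 0.0643). In males, no gene of any of these lists passed. The markers of other cells in females were level for medium spiny neurons (0 of 7 passed, median log2 fold change 0.021), 0 of 5 for cholinergic interneurons (median 0.33), 0 of 4 for migrating neuroblasts, 0 of 4 for microglia and 0 of 3 for endothelial cells. Among oligodendrocyte markers 4 of 5 fell (median -0.28), and among astrocyte markers 1 of 4 did. With the spliced share as a covariate no gene passed at all, in or out of these lists. With the cortical marker score, where 8.23% of all genes passed, 1 gene of catecholamine metabolism and 1 oligodendrocyte marker did.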

How the data were processed

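Sequencing read pairs (rRNA-depleted, stranded libraries) had been aligned by the authors with STAR 2.6.1b to mm10, and the deposited files hold raw counts per gene, unstranded and for each strand; the reverse-strand column was used, since the other strand held 4.91% to 5.24% of the sum. Counts were tested with edgeR 4.0.16 (quasi-likelihood, TMM, filterByExpr minimum of 10) in 12 animals per comparison, or 24 for the interaction, at an adjusted p of 0.10, under R 4.3.3. Estrous stage was not used, since the labels are incomplete. Normalized counts were counts divided by DESeq2 1.42.0 size factors. The share of spliced reads came from the study's alignment statistics and served as a covariate. It is the number of splice events per uniquely mapped read pair, so 1 pair can count more than once. Library totals were 39923666 to 70575745 counts. On simulated counts for the female comparison, 86.7% of 200 genes changed by 1 log2 unit were recovered, with 10.5% false among calls, over 20571 genes. Recovery of smaller changes, such as those of Sst, Pvalb and Lhx6 in females, was not tested. The share of false calls where 25.1% of all genes pass, as in the female comparison, was not tested either. Replicate numbers were not used to pair the animals, since same-numbered libraries were not consistently alike. That check cannot tell whether a number marks a litter or a round of processing. No libraries were copies of each other. Correlations used Python 3 with 100000 resamples, whose smallest p is 1e-05. The members and lists were chosen with earlier results of these data known. Named list genes were the at most 2 with the smallest p among those past the threshold, or the smallest p where none passed. Some genes that these rules name are not reported here. Alternatives tried were DESeq2, its size factors, filters, strand, replicate block, library set, spliced share, cortical score, a fit of all animals, single animals left out and an adjusted p of 0.05.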

Additional observations from a re-analysis of the deposited data

Results flagged for a closer look

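Over 32 sets of a member and a group, 4 held a single animal far from the other 5 by Dixon's criterion on untransformed normalized counts. Chance flags about 1 in 20 sets of normally distributed values. That rate need not hold for skewed counts such as those of Vip, so the 4 are not weighed against it. Vip was 687.25 normalized counts in Con female replicate 3, against 297.3 in the next animal, and 372.25 in MSUS female replicate 1, against 135.51. These animals had the highest cortical marker scores of their groups, 2.55 and 1.39. Lhx6 was 2253.9 in Con male replicate 6, against 1296 in the next, and 2431.2 in MSUS male replicate 4, against 1437.8. These animals had the lowest cortical marker scores of their groups, -1.92 and -2.25.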

How the results depend on the processing

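Over the 32 log2 fold changes of the members, 724 of 792 values under the alternatives kept their direction and their side of the threshold. Another 36 lost the call, 3 gained it and 29 changed sign. Only Sst, Pvalb and Lhx6 in females had a call to lose, so the pooled count says little about those calls. Of 10 other settings, Sst lost it in 5, Pvalb in 4 and Lhx6 in 4. Of 12 fits without 1 animal, it was lost in 8 for Sst, 7 for Pvalb and 8 for Lhx6. The count of members past the threshold in females was 3, and it was 0 with no filter on low counts (10.1% of all genes passed), with the spliced share (0%), with the cortical marker score (8.23%), in one fit of all 24 animals (19%) and at an adjusted p of 0.05 (15.2%), beside 25.1% of all genes as reported. With 1 animal left out it ranged from 0 to 4 (15% to 27.7% of all genes). With a replicate block it was 2 (18.5% of all genes), Sst missing the threshold (edgeR adjusted p = 0.131). Between same-numbered females r was -0.45 to 0.50, which gives no clear pairing but cannot tell what the numbers stand for. In the other comparisons the block changed no call of a member. The counts in males, in the interaction and between the sexes were 0 under every alternative run.

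Signs turned as follows, in log2 units. Nos1 in females was -0.018 without regard to strand and -0.042 with the cortical score, which also gave Th -0.091 and Vip 0.33. With an animal left out, Nos1 in females ranged from -0.032 to 0.042, Sst in males from -0.037 to 0.26, Calb2 in males from -0.20 to 0.097, Lhx6 in males from -0.22 to 0.25 and the Lhx6 interaction from -0.014 to 0.45. With the spliced share, Lhx6 in males was -0.0022, and the interaction was 0.066 for Sst and 0.12 for Npy. With the cortical score the Lhx6 interaction was -0.20. Between Con females and Con males, the spliced share gave Sst -0.20, Npy -0.12, Pvalb -0.31 and Th 0.079, and the cortical score gave Sst -0.034, Npy -0.0022, Th 0.091 and Vip -0.0062. The causes were not tested.

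Of 18 correlations between members followed up, 6 lost the call without the 2 farthest animals, 5 within females and 10 within males, where n is 12. Within females Nos1 gained it with Sst (r = -0.68, adjusted permutation p = 0.037) and with Npy (r = -0.71, 0.034). Of the relations with the measures, Pvalb with the spliced share was -0.22 within females. DESeq2 called 2 higher and 4 lower of the MGE lineage genes and 3 lower of the fast-spiking genes in females, more than edgeR. Under TMM scaling in place of size factors, all 32 group levels moved by less than 1 SD within the group. That limit is wide beside the small difference between the scalings, so the result says little.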
